A study of Mus musculus with 10 samples.

Results

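Adult mouse cortical endothelial cells (ECs) grown with MS-275 were compared with untreated adult ECs by mRNA-seq. The comparison used 5 of the 10 libraries of the series, and 13230 of the 21612 genes in the table were tested, namely those with a normalised count of 10 or more in at least 2 of these 5 libraries. The last gene inside this limit, Lgsn, had 10.2 as its second highest value, and the first gene outside it, Ikzf4, had 9.86. A normalised count is the number of reads of a gene divided by a factor for the depth of its library.

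The 2 MS-275 libraries were from adult wild-type primary cortical ECs given MS-275 at 10 µM, and the 3 adult control libraries were from the same kind of cells labelled as control, with no vehicle given in the labels. Per the study's methods, the cells came from pooled cortices of adult male C57BL/6J mice freed of meninges, and were expanded on collagen to the second passage, with purity judged by CD31 and isolectin B4, so both groups are cultured cells and not cells taken directly from the brain. The other 5 libraries were 2 from adult ECs given Wnt3a and 3 from ECs of E13.5 embryos. The labels call the libraries of a group biological replicates.

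Histone deacetylases (HDACs) remove acetyl groups from histone tails, and acetyl loss usually accompanies a closed chromatin state and low transcription. MS-275, also called entinostat, is a benzamide that blocks class I HDACs, which work inside the Sin3, NuRD and CoREST complexes. Cortical ECs form the blood-brain barrier (BBB) through tight junctions, selective transporters and a low rate of vesicle transport, and Wnt/β-catenin signaling induces this state during development.

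The libraries held 31733768 and 24051073 reads on genes in MS-275, against 31692257, 27502435 and 26998907 in adult control. More genes had at least 1 read in MS-275 (16428 and 15823) than in adult control (14075, 13948 and 14556). Adult control 1 and 2 were close to each other (Pearson r = 0.991 on log2 values over genes), and adult control 3 was farther from both (0.941 and 0.934). MS-275 1 and 2 had r = 0.934. By this likeness the libraries compared fell into a set with MS-275 1, adult control 1 and 2, and a set with MS-275 2 and adult control 3. The labels name no such batch, and differences within each set are given for the calls as a whole and for the endothelial, mitosis and Hox lists.

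The defining EC genes were high in adult control, and the same genes were much lower in MS-275. The summed level of 29 endothelial identity genes was 68475 and 49521 in MS-275, against 482227, 519286 and 388998 in adult control. In bulk samples, fewer cells of a type and less RNA per cell cannot be told apart. Summed markers of other cell types moved in both directions. The pericyte and smooth muscle list summed to 721 and 955 in MS-275, against 96.3, 96.6 and 142 in adult control. Fibroblast and meningeal markers summed to 1169 and 1498 in MS-275, against 168, 181 and 365 in adult control. By the test described below, 4 of 6 tested pericyte and smooth muscle genes and 3 of 6 tested fibroblast and meningeal genes were called higher, and none lower. Over all tested genes 22.5% were called higher and 20.2% lower. Of these rises, 1 in the pericyte list and 2 in the fibroblast list were of genes below 10 in every adult control library. Such genes passed the limit of 10 only through MS-275, which largely fixed their direction. Within these lists Rgs5, Kcnj8, Col3a1, Dcn and Lum were at or near 0 in all 5 libraries, whereas Des and Col6a1 were among the members called higher. Among members at 10 or more in a library of each group, 3 of 5 pericyte and smooth muscle genes were called higher. The same held for 1 of 4 fibroblast and meningeal genes. The microglia and macrophage list summed to 8501 and 3371 in MS-275, against 12669, 15055 and 7598 in adult control, nearly all of it Cd68, and P2ry12, C1qa, C1qc and Tyrobp were at 0 in all 5 libraries. Csf1r was present in both groups, with 119 and 124 in MS-275, against 219, 213 and 108 in adult control. Ptprc had 15.4 and 2.19 in MS-275, against 0, 0 and 1.97 in adult control. Aif1 had 1.71 and 0 in MS-275, against 0, 2.03 and 5.92 in adult control. None of the 3 tested members of this list was called. These members were named after their values were seen, and the part of other cell types in the results was not tested.

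**Figure D1:**
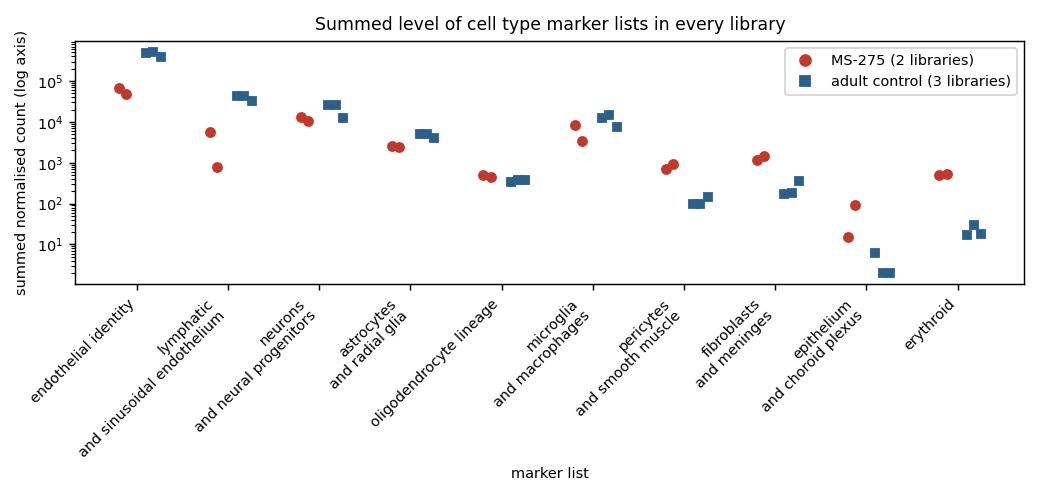
Summed normalised count of each cell type marker list (log axis) in the 2 MS-275 libraries (circles) and the 3 adult control libraries (squares). The endothelial sum is 68475 and 49521 in MS-275, below all 3 adult control sums, while the pericyte, fibroblast and erythroid sums lie above adult control.

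Across all tested genes, 5652 (42.7%) were called, which required an adjusted p below 0.05 together with a log2 fold change beyond 0.2 in either direction. The fit was limma on log2(normalised count + 1) with Benjamini-Hochberg adjustment over the 13230 genes. Every adjusted p below is from this fit, with fold changes on the log2 scale ± SE (n = 2 MS-275 and 3 adult control libraries). The spread behind each SE and p was estimated from all 10 libraries, with those of Wnt3a and E13.5 included. With the 5 compared libraries alone, 4189 genes were called. Of the tested genes, 2974 (22.5%) rose in MS-275 and 2678 (20.2%) fell. Every count of called members of a gene list stands against these shares. Changes beyond 1 on the log2 scale were called for 4345 genes, of which 2284 rose and 2061 fell. The values of the groups did not overlap for 8074 genes (61%). Of the 5652 called genes, 5649 had the same sign of difference within both sets of libraries, against 10390 (78.5%) of all tested genes and 62.6% of those not called. A call from so few libraries nearly requires equal signs, so this count is a description. Leaving out MS-275 2 reduced the calls to 3331. The median log2 fold change over all tested genes was 0.08. The filter bears on the counts of rises, because 673 tested genes were below 10 in every adult control library and passed only through the MS-275 libraries, and 617 of them were called higher. It bears less on the falls, with 187 tested genes below 10 in both MS-275 libraries.

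**Figure D2:**
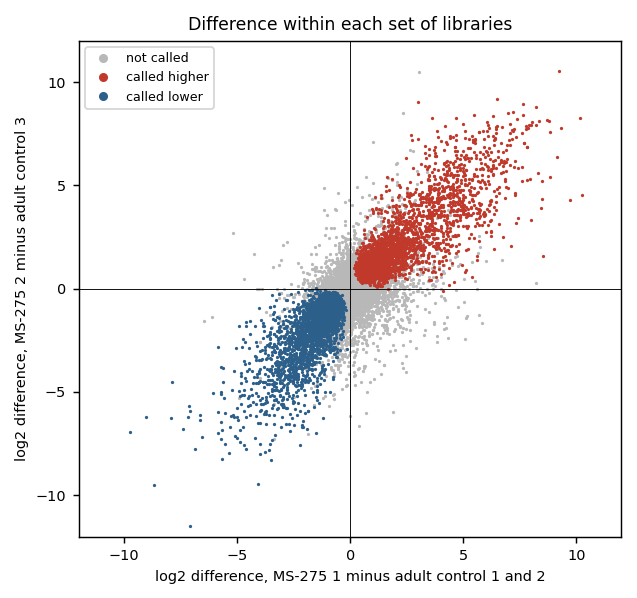
Log2 difference of each tested gene within each set of libraries: MS-275 1 minus the mean of adult control 1 and 2 (x axis) against MS-275 2 minus adult control 3 (y axis). Of the 5652 called genes, 5649 lie in the quadrants of equal sign, and grey points are genes not called.

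Genes without a read in any adult control library were examined for gains from zero. Of the 6102 such genes, 202 (3.31%) reached 10 or more in both MS-275 libraries. Their mean in MS-275 was between 10.6 and 614, with a median of 32.8, and the threshold was passed in both libraries by the rule itself. Of the 202 genes, 201 were called. Because the rule asks for 0 in adult control, that count is a description and not a test. None of the 202 genes had 10 or more in both Wnt3a libraries, and 107 were at 0 in both. A read was present for 76 of the 202 in Wnt3a 1 and for 40 in Wnt3a 2. In E13.5 ECs, 108 of the 202 (53.5%) had 10 or more in all 3 libraries. Among the 6102 genes at 0 in adult control the number was 887 (14.5%), but 3891 genes had no read in any of the 5 libraries, whereas the 202 were chosen for their reads, so these shares cannot be compared. The E13.5 libraries had only 45.3, 62.4 and 70.6 for the EC gene Pecam1, and the part of this in the overlap was not tested. Leaving out a library relaxes the rule, and the count was then 333 without MS-275 1, 338 without MS-275 2 and 307 without adult control 3. Of the gained genes with a known position, 12 (5.97%) were on the X chromosome, close to the 6.99% among genes at 0 in adult control.

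The gained genes with the highest level were of many kinds. Crct1, which encodes a protein named for cysteine-rich C-terminal repeats, had 1205 and 21.9 in MS-275, against 0 in every adult control library, so it was at least 721-fold higher, although nearly all of its mean came from MS-275 1. Trpc5os, a transcript named as opposite strand to the calcium channel gene Trpc5, had 641 and 217 in MS-275, against 0 in every adult control library. Trpc5os lies opposite another gene, and reads of the pair cannot be told apart where strand was not used in counting. Des, which encodes the muscle intermediate filament desmin, had 299 and 436 in MS-275, against 0 in every adult control library, and was at least 377-fold higher. Both MS-275 libraries were far above zero for these genes, except that Crct1 was low in MS-275 2.

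Hba-a1 and Hba-a2 encode the α-globin chain of adult haemoglobin and differ little in sequence, so their reads are hard to assign to one copy. Hba-a1 had 252 and 244 in MS-275, against 0 in every adult control library. Hba-a2 had 238 and 243 in MS-275, against 0 in every adult control library. Both were present at nearly equal levels in the MS-275 libraries, while the 4 β-like globin genes in the list were at or near 0 in all 5 libraries. Cacna1g, which encodes a T-type calcium channel, had 232 and 220 in MS-275, against 0 in every adult control library. Serpinb5, which encodes the serpin maspin, had 217 and 210 in MS-275, against 0 in every adult control library. Their levels were nearly the same in both MS-275 libraries. Gdap1, which encodes a mitochondrial outer membrane protein, had 141 and 205 in MS-275, against 0 in every adult control library, and was at least 178-fold higher.

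**Figure D3:**
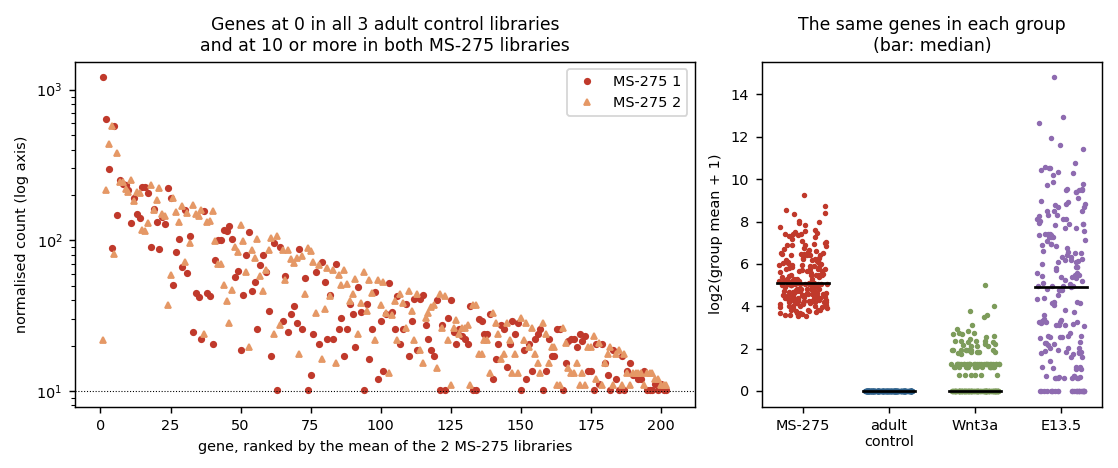
Left: normalised count (log axis) of the 202 genes at 0 in all adult control libraries and at 10 or more in both MS-275 libraries, ranked by their MS-275 mean, with MS-275 1 as circles, MS-275 2 as triangles and a dotted line at 10. Right: log2(group mean + 1) of the same genes in MS-275, adult control, Wnt3a and E13.5, with the median as a bar.

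Losses to zero were few. Only 3 genes had 10 or more in all adult control libraries and 0 in both MS-275 libraries. Gm29695 had 0 in both MS-275 libraries, against 13.9, 12.2 and 67.0 in adult control, and its call was lost in 11 of 18 alternatives. Vmn2r13, a vomeronasal receptor gene, had 0 in both MS-275 libraries, against 12.1, 11.2 and 13.8 in adult control. The counts depended on the threshold, and with at most 3 reads allowed in the zero group, 22 genes were lost and 326 were gained. Without MS-275 1 the lost genes numbered 50, and they numbered 8 without MS-275 2, 5 without adult control 1 and 10 without adult control 3.

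Among called genes whose higher group averaged 100 or more, the largest rises were of several kinds. Cadm4, a cell adhesion molecule, had 1683 and 4429 in MS-275, against 6.94, 0 and 1.97 in adult control (log2 fold change 9.90 ± 0.76 (SE), adjusted p = 8.6e-05). Lamb3, a laminin chain of epithelial basement membranes, had 1151 and 599 in MS-275, against 0, 0 and 0.986 in adult control (9.37 ± 0.80, adjusted p = 0.00013). Both MS-275 values were above every adult control value. Onecut2, a homeodomain transcription factor, had 438 and 818 in MS-275, against 0, 0 and 1.97 in adult control. Col6a1, a collagen VI chain, had 419 and 844 in MS-275, against 0, 0 and 1.97 in adult control. Cd36, a fatty acid and scavenger receptor, had 330 and 550 in MS-275, against 0, 0 and 0.986 in adult control. The adult control levels of Lamb3, Onecut2, Col6a1 and Cd36 rested on 1 or 2 reads. These genes and Cadm4 were below 10 in every adult control library and passed the filter only through MS-275, which largely fixed their direction. Vgf, a neuropeptide precursor, had 1826 and 5635 in MS-275, against 8.67, 4.07 and 19.7 in adult control (8.32 ± 0.67, adjusted p = 1.0e-04), and no values overlapped.

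The largest falls included receptors, carriers and proteases of the vessel wall. Ushbp1 had 17.1 and 0 in MS-275, against 2327, 2530 and 2857 in adult control (-9.24 ± 1.17 (SE) on the log2 scale, adjusted p = 0.0005). Clca2, a member of the calcium-activated chloride channel regulator family, had 8.53 and 24.0 in MS-275, against 7420, 9159 and 3076 in adult control. Gpihbp1, which carries lipoprotein lipase across capillary ECs, had 1.71 and 6.56 in MS-275, against 1268, 1595 and 561 in adult control (-7.85 ± 1.07, adjusted p = 0.0007). Every one of these MS-275 values lay far below the lowest adult control value. Adamts5, an aggrecan-cleaving protease, had 59.7 and 131 in MS-275, against 10373, 10059 and 14859 in adult control. Ednrb, the endothelin B receptor, had 206 and 140 in MS-275, against 19145, 20219 and 20547 in adult control (-6.87 ± 0.67, adjusted p = 0.00019).

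Genes that define the endothelial lineage fell together. Of 29 endothelial identity genes, all tested, 26 fell and none rose, with a median log2 fold change of -4.11 against 0.08 over all tested genes. The median was -3.86 in the first set of libraries and -4.50 in the second. Pecam1, an adhesion molecule of the EC junction, had 4762 and 2551 in MS-275, against 74703, 81545 and 58849 in adult control (log2 fold change -4.35 ± 0.29, adjusted p = 7.1e-05). Cdh5, the VE-cadherin of adherens junctions, had 10931 and 2808 in MS-275, against 81723, 90276 and 75414 in adult control (-3.89 ± 0.50, adjusted p = 0.00054). Both genes were lower in both MS-275 libraries than in every adult control library. Emcn, the sialomucin endomucin, had 235 and 292 in MS-275, against 23333, 23832 and 20142 in adult control (-6.41 ± 0.42, adjusted p = 7.1e-05). Nos3, the endothelial nitric oxide synthase, had 2801 and 984 in MS-275, against 48839, 51617 and 32846 in adult control (-4.71 ± 0.40). The MS-275 values did not overlap the adult control values for either gene. Vwf, which encodes von Willebrand factor, was one of the 3 genes not called, with 1743 and 934 in MS-275, against 116, 78.3 and 1370 in adult control. Its groups overlapped through adult control 3.

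**Figure D4:**
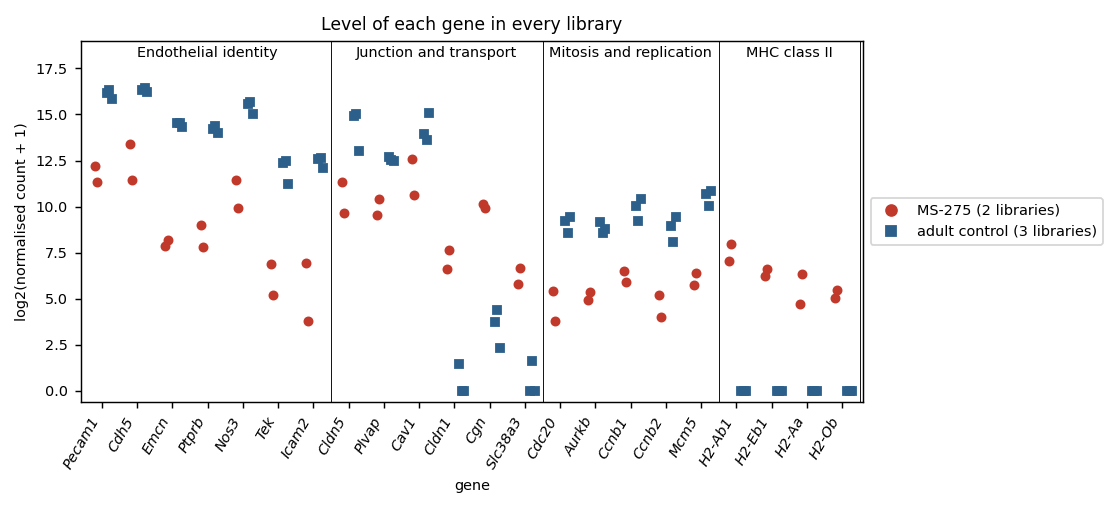
Log2(normalised count + 1) of 22 genes in every library, with MS-275 as circles and adult control as squares, grouped into endothelial identity, junction and transport, mitosis and replication, and MHC class II. MS-275 lies below adult control for all 7 endothelial identity genes and above it for Cldn1, Cgn, Slc38a3 and the 4 MHC class II genes, which are at 0 in every adult control library.

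The receptor systems of vessel growth followed the same direction. Of 7 tested genes of the angiopoietin-Tie axis, 4 fell and none rose, and of 12 VEGF ligands and receptors 6 fell and none rose, although 2 rose without adult control 3. Tek, the angiopoietin receptor, had 116 and 36.1 in MS-275, against 5349, 5643 and 2383 in adult control (-5.98 ± 0.57, adjusted p = 0.00017). Tie1, its co-receptor, had 1731 and 4399 in MS-275, against 24010, 26187 and 15218 in adult control. The groups did not overlap for either receptor. Nrp2, a VEGF and semaphorin co-receptor, had 2961 and 1437 in MS-275, against 11569, 12228 and 14199 in adult control (-2.61 ± 0.29, adjusted p = 0.00029). Among 15 tested Notch genes, 8 fell and 3 rose, against 20.2% and 22.5% of all tested genes. Of the 3 rises, 1, that of Hey2, was of a gene below 10 in every adult control library, which passed the filter only through MS-275. Dll4, an arterial Notch ligand, had 106 and 48.1 in MS-275, against 2969, 2936 and 1724 in adult control (-5.09 ± 0.65, adjusted p = 0.00052), whereas Hey2, a Notch target transcription factor, had 75.1 and 153 in MS-275, against 0, 0 and 1.97 in adult control (6.23 ± 0.65, adjusted p = 0.00024).

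Tight junction genes moved in both directions. Of 22 tested junction genes 4 rose and 7 fell, and without MS-275 2 the falls were 2. Of the 4 rises, 1 was of a gene below 10 in every adult control library. Over all tested genes 22.5% rose and 20.2% fell. Cldn5, the main claudin of brain ECs, had 2560 and 802 in MS-275, against 31200, 33861 and 8340 in adult control (-3.85 ± 0.81, adjusted p = 0.0054), and the call was lost without MS-275 2. Cldn1, a claudin of epithelial barriers, had 97.2 and 199 in MS-275, against 1.73, 0 and 0 in adult control (6.65 ± 0.94, adjusted p = 0.00083). Adult control 3 was the lowest of the controls for Cldn5, and for both claudins the groups did not overlap. Cldn1 was below 10 in every adult control library and passed the filter only through MS-275, which largely fixed its direction. Cgn, the tight junction scaffold cingulin, had 1127 and 966 in MS-275, against 12.1, 20.3 and 3.94 in adult control (6.55 ± 0.90, adjusted p = 0.00072).

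Transport genes showed no single direction. Of 18 tested BBB transporters 4 rose and 4 fell, close to the shares over all tested genes (22.5% and 20.2%), and no fall was called without MS-275 2 or in a fit without the E13.5 libraries. Slc38a3, a glutamine transporter, had 54.6 and 100.6 in MS-275, against 0, 2.03 and 0 in adult control (5.70 ± 0.70, adjusted p = 0.00045). Abcg2, an efflux pump, had 2140 and 2624 in MS-275, against 619, 522 and 994 in adult control (1.79 ± 0.33, adjusted p = 0.0027). Both were higher in both MS-275 libraries. Slc38a3 was below 10 in every adult control library and passed the filter only through MS-275, which largely fixed its direction. Slc2a1, the glucose transporter GLUT1, had 8411 and 6487 in MS-275, against 3252, 3476 and 1789 in adult control (1.44 ± 0.46, adjusted p = 0.033), and the call was lost in 6 of 19 alternatives, including the replicate block. Mfsd2a, a lipid transporter of the BBB, had 18.8 and 0 in MS-275, against 19.1, 24.4 and 0 in adult control (-0.85 ± 1.75, adjusted p = 0.72), and the groups overlapped. Among 10 caveolae and vesicle transport genes 6 fell and none rose, and without MS-275 2 the falls were 2. Plvap, a diaphragm protein of permeable vessels, had 745 and 1369 in MS-275, against 6506, 5893 and 5594 in adult control (-2.57 ± 0.38, adjusted p = 0.00094). Cav1, the caveolar coat protein, had 6249 and 1581 in MS-275, against 15433, 12649 and 34123 in adult control (-2.58 ± 0.60, adjusted p = 0.0081), and its call was lost without MS-275 2.

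Of 8 tested BBB transcription factors 5 fell and 1 rose, and the falls were 3 without MS-275 2. Sox17, an endothelial SoxF factor, had 51.2 and 100.6 in MS-275, against 2471, 2782 and 2343 in adult control (-5.12 ± 0.63, adjusted p = 0.00046). Foxf2 was at 0 in all 5 libraries.

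Of 13 tested Wnt/β-catenin targets 9 rose and 2 fell, against rises in 22.5% of all tested genes. The filter largely fixed 4 of these rises, since those genes were below 10 in every adult control library, and with a filter of 50 the rises were 4. Tcf7, a transcription factor that binds β-catenin, had 312 and 271 in MS-275, against 6.94, 12.2 and 17.7 in adult control (4.54 ± 0.45, adjusted p = 0.00019). Axin2, a feedback inhibitor of the pathway, had 11.9 and 83.1 in MS-275, against 0, 0 and 1.97 in adult control (4.52 ± 0.81, adjusted p = 0.0025). Axin2 was higher in both MS-275 libraries, but far more so in MS-275 2. Lef1 was below the filter, with 5.12 and 15.3 in MS-275, against 0, 2.03 and 0 in adult control. Rnf43, a membrane ligase that removes Frizzled receptors, had 18.8 and 36.1 in MS-275, against 0 in every adult control library, and was at least 27.7-fold higher. The targets that fell, named after their values were seen, were Ccnd1 and Myc. Ccnd1, cyclin D1, had 11499 and 1878 in MS-275, against 43094, 37869 and 37527 in adult control (-3.08 ± 0.63, adjusted p = 0.0045). Myc, a growth-promoting transcription factor, had 738 and 152 in MS-275, against 2771, 2727 and 745 in adult control (-2.41 ± 0.74, adjusted p = 0.028), a call lost in 6 alternatives. Ccnd1 did not overlap between groups, and for Myc only MS-275 1 and adult control 3 came close. Among the ligands, Wnt7a had 87.0 and 17.5 in MS-275, against 0 in every adult control library (5.33 ± 1.30, adjusted p = 0.01), and its call was lost without MS-275 1. Wnt7a passed the filter only through MS-275, which largely fixed its direction. Of 24 receptors and transducers 3 rose and 5 fell, against 22.5% and 20.2% of all tested genes. The falls ranged from 2 to 8 over the alternatives. Lgr4, an R-spondin receptor, had 481 and 376 in MS-275, against 62.5, 79.3 and 86.8 in adult control (2.48 ± 0.27, adjusted p = 0.00026). Fzd4, the Frizzled receptor of retinal and brain vessels, had 1476 and 2235 in MS-275, against 4946, 5002 and 8029 in adult control (-1.68 ± 0.48, adjusted p = 0.02), a call lost in 3 alternatives.

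The Wnt3a libraries were not far from adult control, since Wnt3a 2 and adult control 3 had r = 0.99, as close as adult control 1 and 2, and Wnt3a 1 was closest to adult control 1 (r = 0.954). Against Wnt3a-treated adult ECs, 4220 of the 13230 genes (31.9%) were called, 2188 (16.5%) higher and 2032 (15.4%) lower in MS-275. Both comparisons share the MS-275 libraries. Tcf7 had 312 and 271 in MS-275, against 19.4 and 35.8 in Wnt3a (log2 fold change 3.41, adjusted p = 0.0016). Axin2 had 11.9 and 83.1 in MS-275, against 5.56 and 7.16 in Wnt3a, and did not pass the test (2.17, adjusted p = 0.093). Wnt7a had 87.0 and 17.5 in MS-275, against 30.6 and 0 in Wnt3a, and was not called (2.84, adjusted p = 0.16). Crct1 had 1205 and 21.9 in MS-275, against 62.5 and 0 in Wnt3a, and was not called (4.38, adjusted p = 0.15). Emcn had 235 and 292 in MS-275, against 17407 and 24437 in Wnt3a (-6.29, adjusted p = 2.3e-04). H2-Ab1 had 131 and 251 in MS-275, against 0 in both Wnt3a libraries.

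Cell cycle genes fell in MS-275. Of 30 mitosis genes 25 fell and none rose (median log2 fold change -2.39, with -1.83 in the first set of libraries and -3.43 in the second), and without MS-275 2 the falls were 9. Of 34 DNA replication genes 16 fell and 2 rose (median -0.99), and without MS-275 2 the falls were 9. No DNA replication gene was called higher without MS-275 2, adult control 1 or adult control 2, or with the replicate block. Cdc20, an activator of the anaphase-promoting complex, had 42.6 and 13.1 in MS-275, against 589, 374 and 690 in adult control (-4.43 ± 0.59, adjusted p = 0.00062). Ccnb1, cyclin B1, had 90.4 and 59.0 in MS-275, against 1046, 600 and 1384 in adult control (-3.69 ± 0.55, adjusted p = 0.0011). Aurkb, the kinase of the chromosomal passenger complex, had 29.9 and 40.4 in MS-275, against 565, 378 and 442 in adult control (-3.67 ± 0.49, adjusted p = 0.00066). All MS-275 values were below the lowest adult control value. Mcm5, a subunit of the replicative helicase, had 52.9 and 83.1 in MS-275, against 1663, 1049 and 1832 in adult control (-4.45 ± 0.55, adjusted p = 0.00046). The CDK inhibitor Cdkn1a (p21) had 8051 and 8563 in MS-275, against 10686, 10600 and 9654 in adult control, and was not called. Cdkn1c (p57), another CDK inhibitor, had 779 and 738 in MS-275, against 142, 207 and 21.7 in adult control (3.11 ± 0.78, adjusted p = 0.012), a call lost in 3 alternatives, among them leaving out MS-275 1 or MS-275 2.

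The CCAAT box, which reads in reverse as ATTGG when it lies on the opposite strand of a gene, is the binding sequence of the factor NF-Y and is known from promoters of mitotic genes and of MHC class II genes. The 150 bases before the RefSeq start were searched on both strands in 27025 promoters of GRCm38.p6, and 6828 (25.3%) held it. Of the 30 mitosis genes, 24 had a promoter in the table and 20 of these (83.3%) held it. TTTGAA, the core of the cell cycle homology region, was in 7 of the 24 (29.2%), against 2498 of all promoters (9.24%), and the motifs share no letters in the windows shown. Of the 9 MHC class II genes only 6 had a promoter in the table, too few to describe the list. The promoters of 3 mitotic genes that fell and of 2 MHC class II genes at 0 in every adult control library are shown because the 2 lists moved in opposite directions. A match is a description of letters and not a site in these cells. Capitals mark the letters of either motif on either strand, and each line reads 5′ to 3′ along the strand of the gene. Ccnb1 is at chr13:100786487-100786636 on the minus strand, Cdc20 at chr4:118437344-118437493 on the minus strand, Ccnb2 at chr9:70421555-70421704 on the minus strand, H2-Aa at chr17:34287824-34287973 on the minus strand and H2-Eb1 at chr17:34305717-34305866 on the plus strand.
Ccnb1: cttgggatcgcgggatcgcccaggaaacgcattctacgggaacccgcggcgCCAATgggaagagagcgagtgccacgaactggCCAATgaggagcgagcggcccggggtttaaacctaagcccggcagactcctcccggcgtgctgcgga
Cdc20: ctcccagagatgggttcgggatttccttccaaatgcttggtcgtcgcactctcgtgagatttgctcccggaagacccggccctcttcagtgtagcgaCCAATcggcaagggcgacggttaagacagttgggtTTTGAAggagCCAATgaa
Ccnb2: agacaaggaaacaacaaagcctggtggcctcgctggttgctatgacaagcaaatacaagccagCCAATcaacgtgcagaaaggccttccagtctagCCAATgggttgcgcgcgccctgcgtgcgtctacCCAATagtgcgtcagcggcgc
H2-Aa: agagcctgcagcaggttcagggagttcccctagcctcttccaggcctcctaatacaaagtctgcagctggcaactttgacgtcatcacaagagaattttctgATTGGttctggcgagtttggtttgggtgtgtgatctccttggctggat
H2-Eb1: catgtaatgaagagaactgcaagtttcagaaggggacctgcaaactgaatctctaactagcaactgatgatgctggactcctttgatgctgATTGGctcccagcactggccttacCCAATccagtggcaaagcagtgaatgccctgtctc

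MHC class II genes, which present peptides to CD4+ T cells, were gained in MS-275. Of 7 tested members of the list 6 rose and none fell. These 6 were below 10 in every adult control library and passed the filter only through MS-275, so that the count is largely fixed by the filter. H2-Ab1 had 131 and 251 in MS-275, against 0 in every adult control library, and was at least 193-fold higher. H2-Eb1 had 73.4 and 98.4 in MS-275, against 0 in every adult control library (6.43 ± 0.48, adjusted p = 7.6e-05). H2-Aa had 25.6 and 78.7 in MS-275, against 0 in every adult control library (5.52 ± 0.68, adjusted p = 0.00044). Transcripts of all these chains were present in both MS-275 libraries. With a filter of 50 in place of 10, 3 members were called. Ciita, the class II transactivator, was below the filter, with 9.38 and 9.84 in MS-275, against 6.07, 7.12 and 5.92 in adult control. It was named after its values were seen. Nlrc5, an activator of MHC class I genes, had 113 and 19.7 in MS-275, against 0 in every adult control library, and B2m, the class I light chain, had 9364 and 11194 in MS-275, against 5155, 4917 and 7737 in adult control (0.82 ± 0.25, adjusted p = 0.025), a call lost in 5 alternatives.

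Neuronal genes of the kind that the repressor REST silences through RE1 elements outside neurons, with class I HDACs as its partners, rose in part. Of 16 tested RE1-type genes 10 rose and none fell, against rises in 22.5% of all tested genes. The rises were 6 under quantile normalisation and 5 with a filter of 50, and 6 of the 10 genes were below 10 in every adult control library. Snap25, a SNARE of synaptic vesicle fusion, had 112 and 198 in MS-275, against 0, 0 and 1.97 in adult control (6.70 ± 0.71, adjusted p = 0.00024). Unc13a, a vesicle priming factor, had 2215 and 2576 in MS-275, against 471, 497 and 412 in adult control (2.38 ± 0.22, adjusted p = 0.00016). Both rose in both libraries. Tubb3, the neuronal β-tubulin, had 568 and 334 in MS-275, against 1.73, 2.03 and 0 in adult control (7.75 ± 1.33, adjusted p = 0.002). The neuronal marker list as a whole summed to 13328 and 10593 in MS-275, against 26214, 26285 and 12746 in adult control, and Dcx, Neurod1, Neurod6 and Sox2 were at 0 in all 5 libraries. The sum was mostly Nefl, a neurofilament gene named after its values were seen, with 7155 and 6534 in MS-275, against 20823, 21169 and 9861 in adult control, and Nefl was not called (-1.25 ± 0.46, adjusted p = 0.054), although 8 alternatives called it. By calls 6 of the 9 tested neuronal markers rose, 4 of them genes below 10 in every adult control library, and 1 fell. Slc17a7, a vesicular glutamate transporter, had 239 and 621 in MS-275, against 3.47, 10.2 and 2.96 in adult control (6.05 ± 0.61, adjusted p = 0.00021). Gad2, an enzyme of GABA synthesis and the marker that fell, also named after its values were seen, had 345 and 131 in MS-275, against 533, 415 and 1027 in adult control (-1.52 ± 0.49, adjusted p = 0.033), a call lost in 7 alternatives.

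The class I HDACs and genes known to respond to HDAC inhibitors moved in both directions. Of 24 class I HDACs and complex members 12 fell and 2 rose, and without MS-275 2 the falls were 7. None of these genes was called higher without MS-275 2, adult control 1 or adult control 2, with the replicate block, or with adult control 1 and 2 averaged. Hdac2, a target of MS-275, had 4567 and 7470 in MS-275, against 3295, 2930 and 6013 in adult control (0.59 ± 0.35, adjusted p = 0.19), and the groups overlapped. Hdac1, its paralog, had 2424 and 2771 in MS-275, against 1460, 1603 and 1629 in adult control (0.73 ± 0.23, adjusted p = 0.03), a call lost in 6 alternatives. Chd3, a NuRD remodeling subunit, had 783 and 504 in MS-275, against 6908, 7983 and 4940 in adult control (-3.37 ± 0.24, adjusted p = 7.4e-05). Chd3 was below every adult control value in both libraries. Of 19 tested genes known to respond to HDAC inhibitors, 9 rose and 1 fell (median 0.97), against rises in 22.5% of all tested genes. Of these 9 rises, 3 were of genes below 10 in every adult control library, which passed the filter only through MS-275. Among the 16 members at 10 or more in a library of each group, 6 rose and 1 fell. Gadd45b, a stress response gene, had 813 and 1000 in MS-275, against 57.3, 65.1 and 61.1 in adult control (3.86 ± 0.50, adjusted p = 0.00054). H1f0, a linker histone gene, had 16251 and 2273 in MS-275, against 9422, 9362 and 6119 in adult control, and the MS-275 libraries lay on either side of adult control. Of 25 tested replication-dependent histone genes 10 rose and 2 fell, and without MS-275 2 only 2 rose and none fell. Of the 10 rises, 3 were of genes below 10 in every adult control library.

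**Figure D5:**
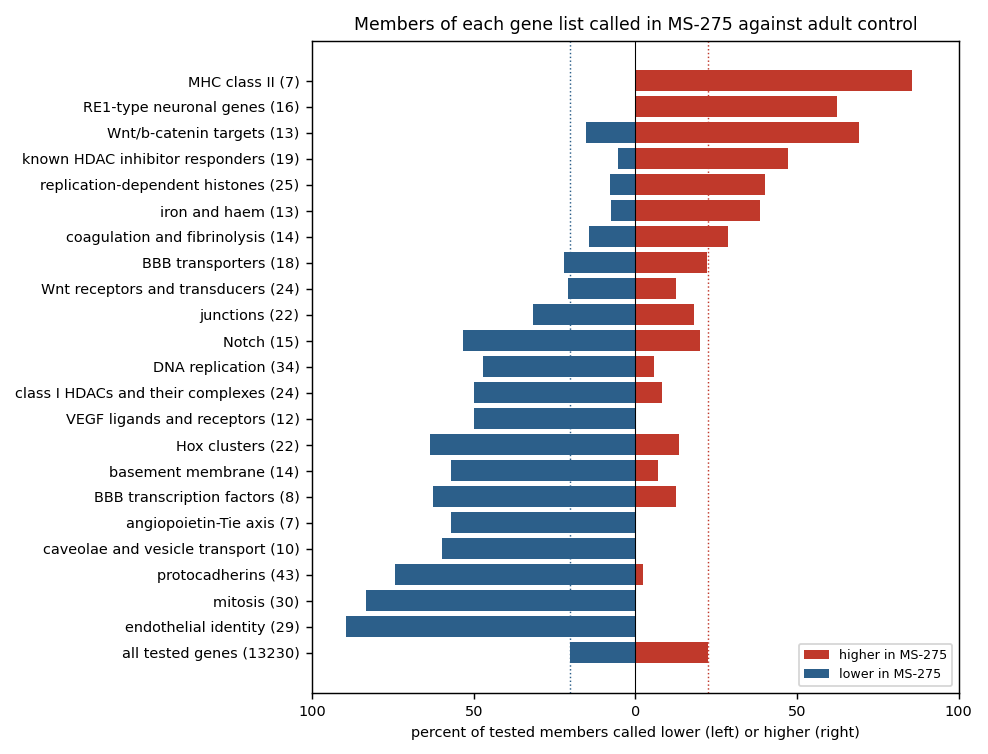
Percent of the tested members of each gene list called lower (bars to the left) or higher (bars to the right) in MS-275, with the number tested in brackets and dotted lines at the share over all tested genes (20.2% lower, 22.5% higher). The MHC class II and RE1-type neuronal lists have no member called lower, and the endothelial identity and mitosis lists have none called higher.

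Most tested Hox and protocadherin genes fell. Of 22 tested Hox genes 14 fell and 3 rose (median -2.76, with -2.06 in the first set of libraries and -3.58 in the second). Of the 3 rises, 2 were of genes below 10 in every adult control library. Among the 17 Hox genes at 10 or more in a library of each group, 12 fell and 1 rose. Hoxb8 had 211 and 90.7 in MS-275, against 4955, 5572 and 6685 in adult control (-5.35 ± 0.64, adjusted p = 0.00041), whereas Hoxb13, the 5′-most gene of the same cluster, had 25.6 and 10.9 in MS-275, against 0 in every adult control library. Of 43 tested protocadherins 32 fell and 1 rose, and 21 of these 43 were γ genes with nearly the same values (log2 fold changes between -2.41 and -2.27), which share their 3′ exons, so that they cannot be counted as separate genes. Of 14 β protocadherins, which are single-exon genes, 9 fell and none rose. Pcdhb18 had 35.8 and 52.5 in MS-275, against 399, 361 and 361 in adult control (-3.08 ± 0.30, adjusted p = 0.00018).

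Matrix, clotting and iron genes were described by the same rule. Of 14 tested basement membrane genes 8 fell and 1 rose, and Col4a1, a collagen IV chain, had 8811 and 9588 in MS-275, against 45901, 49786 and 52885 in adult control (-2.43 ± 0.43, adjusted p = 0.0023). Of 14 tested coagulation and fibrinolysis genes 4 rose and 2 fell, not far from the shares over all tested genes (22.5% and 20.2%), and 7 rose with the replicate block. Of the 4 rises, 1 was of a gene below 10 in every adult control library. Plat, tissue plasminogen activator, had 10516 and 15303 in MS-275, against 304, 333 and 243 in adult control (5.44 ± 0.40, adjusted p = 7.4e-05). The groups did not overlap for Plat. Of 13 tested iron and haem genes 5 rose and 1 fell, and Fth1, the ferritin heavy chain, had 828164 and 330673 in MS-275, against 110386, 107232 and 83997 in adult control (2.39 ± 0.51, adjusted p = 0.0058). Fth1 was the gene with the most reads in both MS-275 libraries, at 3.06% and 1.26% of them.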

How the data were processed

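Primary cortical ECs were profiled by mRNA-seq, with libraries from the KAPA mRNA HyperPrep kit. Per the submitters' processing notes the tools were FastQC, cutadapt, STAR, featureCounts and DESeq2 with the mm10 build; versions and the strand setting are not given in the sources used here. As deposited, the table holds a signal, namely gene counts that the authors divided by DESeq2 size factors. Whole reads were recovered for 100% of the values (tolerance 0.01 read). Left out were 26 rows whose names a spreadsheet had turned into dates, which held between 0.21% and 0.281% of the reads of a library.

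limma 3.58.1 in R 4.3.3 was fitted to log2(normalised count + 1) of all 10 libraries, so that the groups shared 1 estimate of the spread, with a mean-variance trend. Genes needed 10 or more in at least 2 of the 5 compared libraries. Calls needed a Benjamini-Hochberg adjusted p below 0.05 together with a log2 fold change beyond 0.2 in either direction. On the recovered reads, edgeR 4.0.16 (quasi-likelihood) called 5473 genes and DESeq2 1.42.0 called 6254. The statistics were tested on simulated data first. The simulated libraries were independent and held no sets of similar libraries, so that test does not cover the sets seen here. Gained genes were at 0 in all adult control libraries and at 10 or more in both MS-275 libraries, and lost genes the reverse. A fold against a group at 0 used a floor of 3 reads over the group and covers counting error only. Depth ranged from 24051073 to 31733768 reads on genes in the 5 libraries.

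Named genes were up to 4 members of each of 79 lists with the smallest p among called genes, the first 2 members of each list, the 10 largest rises and falls with a mean of at least 100 and no overlap, the 15 highest gained or lost genes, and genes the study discusses. Some genes that this rule names are not reported here. The members, lists and tests were chosen with earlier results of these data known. Adult control 1 and 2 were kept as separate libraries because the labels call them so. Their chi-square per gene was 10.7, against 247.2 and 278.5 for the other pairs of controls and 9.34 for adult control 3 with Wnt3a 2, and counting them as 1 is among the alternatives. The labels call the libraries of a group biological replicates, and the methods count the ECs of 1 litter, pooled, as a replicate. The labels name no animals or batches, and p-values measure the spread between these libraries, which may be partly technical. The promoter sequences are from RefSeq with the GRCm38.p6 build.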

Additional observations from a re-analysis of the deposited data

How the results depend on the processing

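Leaving out 1 library in turn gave between 3331 and 6593 called genes, between 1678 and 3545 higher and between 1653 and 3048 lower, with the lowest value each time without MS-275 2. Against Wnt3a, leaving out 1 library gave between 2279 and 4125 called genes, between 1157 and 2060 higher and between 1122 and 2065 lower. Gained genes numbered 41 at a threshold of 50, 326 with at most 3 reads in the zero group, and between 223 and 338 when 1 library was left out. Lost genes numbered 0 at a threshold of 50, 22 with at most 3 reads in the zero group, and between 3 and 50 when 1 library was left out. A term for the 2 sets of libraries, chosen after seeing the data, gave 6532 calls, 5445 of them shared, and averaging adult control 1 and 2, also chosen then, gave 4307. A replicate block gave 5698 calls, 5167 of them shared. A fit of the 5 compared libraries alone gave 4189 calls, and a fit without the E13.5 libraries gave 4359. The replicate numbers do not pair the samples by the labels, and deviations of equal-numbered libraries correlated at 0.38 and -0.33. Of 79 called genes named in the text, 66 stayed called under every alternative run, and 10 lost the call without MS-275 2. With 1 library left out, the log2 fold change of Mfsd2a ranged from -3.0 without MS-275 1 to 1.31 without MS-275 2, and that of H1f0 from -1.84 to 1.00, without the same libraries. H1f0 had 0.15 with edgeR and 0.16 with DESeq2. The cause of these changes was not tested. With 2 MS-275 libraries, genes near the filter have few reads, and a gene at 0 may be expressed below 3 reads.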

Other observations

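Ion channel, metalloproteinase and guidance genes were counted against the shares over all tested genes, which were 22.5% higher and 20.2% lower. Of 26 tested potassium channel genes 10 rose and 4 fell. Of these 10 rises, 5 were of genes below 10 in every adult control library, which passed the filter only through MS-275. Kcnab2, an auxiliary channel subunit, had 371 and 662 in MS-275, against 21.7, 27.4 and 36.5 in adult control (log2 fold change 4.10, adjusted p = 0.00016, limma). Of 29 tested metalloproteinase, ADAMTS and TIMP genes 7 rose and 10 fell, and 3 of the 7 rises were below 10 in every adult control library. Adamts1, a protease of the extracellular matrix, had 904 and 292 in MS-275, against 46124, 49173 and 45888 in adult control (-6.51, adjusted p = 7.1e-05, limma). Of 39 tested semaphorin, ephrin, Slit and netrin genes 15 rose and 9 fell, and 7 of the 15 rises were below 10 in every adult control library. Epha7, an ephrin receptor, had 273 and 340 in MS-275, against 5.20, 6.10 and 7.89 in adult control (5.38, adjusted p = 0.00017, limma), while Sema6b had 102 and 103 in MS-275, against 1903, 1982 and 1003 in adult control (-3.91, adjusted p = 9.9e-05, limma).

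Of 6 tested Gimap GTPase genes, known for lymphocyte survival, 5 fell and none rose. Gimap5 had 75.1 and 33.9 in MS-275, against 1277, 1287 and 1300 in adult control (-4.65, adjusted p = 0.00028, limma). Of 10 heat shock genes 2 rose and 2 fell, shares close to those over all tested genes. Hsp90aa1, the inducible cytosolic HSP90, had 156312 and 322431 in MS-275, against 11332, 9241 and 21645 in adult control (4.10, adjusted p = 0.00023, limma), whereas its constitutive paralog Hsp90ab1 had 48028 and 47841 in MS-275, against 85632, 87573 and 88041 in adult control (-0.86, adjusted p = 0.0092, limma). For both heat shock genes the MS-275 values did not overlap those of adult control.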
